A study of Drosophila melanogaster with 4 samples.

Results

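The widest H3K36me2 regions of the large autosomes formed a set of 735 domains, selected on a measured value, their width in the authors' combined list, where they are the regions of 10000 bp or more on arms 2L, 2R, 3L and 3R. They were 735 of the 3200 regions on these arms and of the 4311 regions in the whole list. The chromatin came from *Drosophila melanogaster* embryos of 14 to 16 hours, wild type, strain Oregon-R, cross-linked with 1.8% formaldehyde. ChIP-seq with an antibody labelled H3K36me2 W was done in 2 ChIP samples, and 2 input samples are listed beside them with no region list of their own used here. All 4 samples share genotype, strain and stage, so no condition was compared. The values below set the replicates beside each other, and the domains beside the narrower autosomal regions and the wide X regions. Coordinates are on FlyBase release 5. No genome or annotation of that release was used here, so no sequence is printed and no gene is named.

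Histone H3 dimethylated at lysine 36 is laid down in flies chiefly by the methyltransferases Mes-4 and Ash1, while Set2 makes the trimethylated form over transcribed gene bodies. The dimethyl mark is found over active genes and hinders methylation of lysine 27 by Polycomb enzymes on the same histone tail. Whole embryos hold many tissues, so a domain shows where the mark lay in at least part of the cells.

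Width alone chose these domains, so their number, their width and any comparison of width with the other regions are descriptions without a test. The rule took 23.0% of the autosomal regions, which held 12.02 of 22.8 Mb, or 52.6% of the autosomal bases in the list, and 12.4% of the length of the arms. The median domain was 14131 bp wide, the quartiles were 11882 and 18913 bp, and the widest reached 52909 bp. There were 198 domains of 10 to 12 kb, 218 of 12 to 15 kb, 160 of 15 to 20 kb, 127 of 20 to 30 kb and 32 of 30 kb or more. The last class held 9.35% of the domain bases. The other 2465 autosomal regions had a median width of 3821 bp and covered 10.8 Mb.

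The limit of 10 kb cut through a continuous range of widths. Just inside it were 2R 11545430 to 11555432 and 3R 12971430 to 12981432, both of 10003 bp, and 3R 1020232 to 1030260, of 10029 bp. Their scores in the combined list were 1.39, 1.59 and 1.38. Just outside it were 2R 10381448 to 10391442, of 9995 bp, 2R 17397184 to 17407174, of 9991 bp, and 3R 7702880 to 7712864, of 9985 bp. Those scored 2.06, 1.45 and 1.80, so the scores inside and outside the limit overlapped. The score is what the authors gave each region, and its scale was not known.

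All 4 arms carried wide domains, at unequal rates. Arm 2R held 195 domains, or 9.22 per megabase, and 3R held 230, or 8.24 per megabase. Arms 2L and 3L held 150 and 160, which is 6.52 per megabase on each. The same order of 2R, 3R and the left arms appeared when regions of 10 kb or more were counted in each replicate. There 2R held 8.37 ± 0.268 per megabase, 3R 7.11 ± 0.177, 2L 5.87 ± 0.307 and 3L 5.66 ± 0.346 (SD, n = 2 each). The gap between 2L and 3L was smaller than their SDs, whereas the right arms stood above the left arms by more than those SDs. These SDs describe only the spread between 2 region lists of the same arm, so they give no test of a difference between arms. Over the 4 autosomal arms there were 7.61 domains per megabase, and the X chromosome held 154 regions of this width, 6.87 per megabase.

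The domains covered 15.0% of 2R, 13.4% of 3R, 11.0% of 2L and 10.5% of 3L. Widths and scores were close between arms, with median widths from 13761 bp on 2R to 14455 bp on 3L and median scores from 1.70 on 2L to 1.79 on 3L. The arms thus differed in the number of domains more than in what a typical domain measured. Domains made up 25.6% of the regions on 3R, 23.8% on 2R, 21.7% on 2L and 20.2% on 3L. Regions of any width were also densest on 2R, with 819 in 21.1 Mb. There were 899 in 27.9 Mb on 3R, 690 in 23.0 Mb on 2L and 792 in 24.5 Mb on 3L. A high rate on 2R was thus not particular to wide domains.

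Domains lay in all 5 parts of every arm. Cut into 5 equal parts from the telomere end to the centromere end, the 4 arms together held 158, 159, 121, 131 and 166 domains. The corresponding counts of regions of 10 kb or more were 144, 146, 106, 118 and 154 in replicate 1 and 140, 130, 104, 116 and 141 in replicate 2. The middle part was the lowest in all 3 lists when the arms were summed. It had 6.26 domains per megabase, against 8.59 in the part nearest the centromere. Narrower regions numbered 507 in the middle part, within the range of 444 to 539 in the others. The part of a single arm with the fewest was part 4 of 2L, with 15 domains in the combined list, 15 wide regions in replicate 1 and 14 in replicate 2. It was also the lowest in narrower regions, with 68, or 14.8 per megabase. Domains made up 18.1% of its regions, more than the 17.1% in part 3 of 2R.

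**Figure D1:**
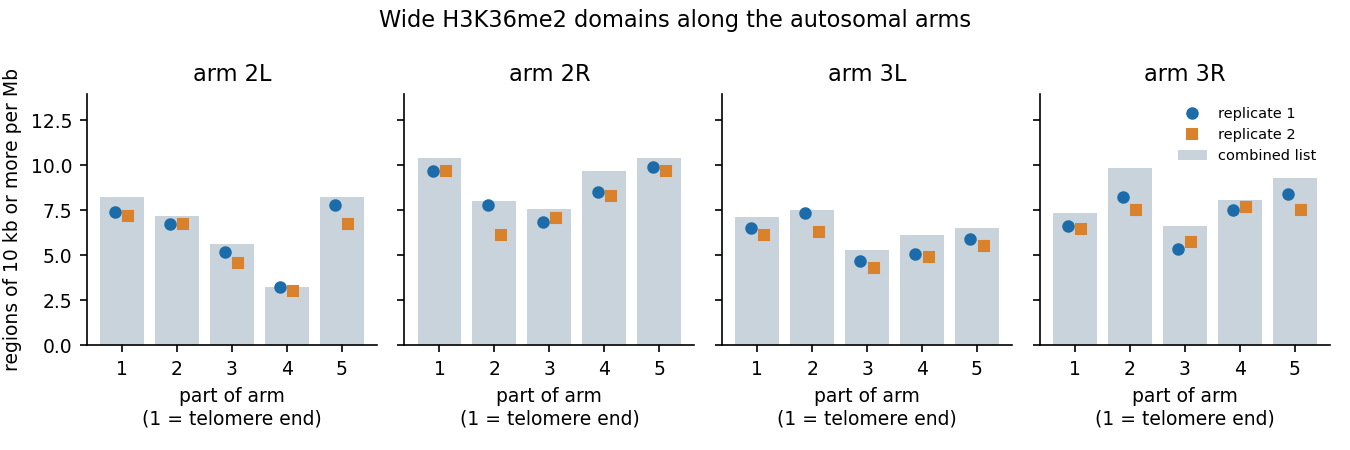
Regions of 10 kb or more per megabase in 5 equal parts of each of the 4 autosomal arms, numbered from the telomere end (x axis), in the combined list (bars), replicate 1 (circles) and replicate 2 (squares). Part 4 of 2L is the lowest, at 3.26 per megabase, and parts 1 and 5 of 2R are the highest, at 10.4 per megabase in the combined list.

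Every domain was met by at least 1 region in each replicate, and nearly all of its bases were covered there. This agreement is not independent evidence, since the combined list was made from the same replicates. Domain bases were covered to 98.6% in replicate 1 and 97.5% in replicate 2, a mean of 98.0% ± 0.736 (SD, n = 2). The narrower autosomal regions were covered to 91.6% in replicate 1 and 87.6% in replicate 2, and 275 of them had no region in replicate 1 and 354 none in replicate 2. Wide X regions were like the domains, covered to 98.6% in replicate 1 and 97.1% in replicate 2, and each was met in both replicates. Fewer than 90 percent of the bases were covered in 17 domains in replicate 1 and in 36 domains in replicate 2. What the replicates lacked lay mostly at the edges of the domains, 138 kb in replicate 1 and 234 kb in replicate 2. Gaps inside the domains made up 36.3 kb and 65.03 kb.

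Ranked by the replicate that covered it less, the least covered domain was 3R 1020232 to 1030260, of which replicate 2 held 73.0% and replicate 1 held 83.4%. Its right end was 1 bp apart in the replicates, and its left end began at 1021781 in replicate 1 and at 1022824 in replicate 2. Next was 3L 11783364 to 11793590, at 85.2% in replicate 1 and 74.3% in replicate 2, again short mostly at the left end. The third, 3R 5541354 to 5551460, was covered to 95.5% in replicate 1 and 74.8% in replicate 2. A weak piece of 1817 bp at its left, scored 0.483 in replicate 1, had no counterpart in replicate 2. These 3 domains were between 10029 and 10227 bp wide. In replicate 1 alone the lowest share was 79.9%, at 3L 9351638 to 9364592, a domain of 12955 bp covered to 88.7% in replicate 2.

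A wide domain was often more than 1 region in a replicate. In replicate 1, 131 domains (17.8%) were met by more than 1 region, and in replicate 2, 199 domains (27.1%). Over all autosomal regions in the combined list the same happened to 6.22% in replicate 1 and 9.84% in replicate 2. Among the narrower regions alone the shares were 2.76% and 4.71%. A wider region has more room for a break, so a higher share was built into the rule. Counted per megabase of region, replicate 1 had 11.7 breaks in the domains and 6.47 in the narrower regions, and replicate 2 had 18.0 and 11.2. Narrow regions can hold few breaks, because each replicate region is itself more than 1 kb wide, and how far this sets the rates was not tested. The Wilson 95% intervals of the shares in domains were 15.2 to 20.8% in replicate 1 and 24.0 to 30.4% in replicate 2. Wide X regions were split in 16.9% of cases in replicate 1 and 31.2% in replicate 2, with intervals of 11.8 to 23.6% and 24.4 to 38.9%. These intervals overlapped those of the domains. They cover counting error within a single list only, so their overlap gives no test between X and autosomes.

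Most split domains came apart into only a pair of regions, 122 of 131 in replicate 1 and 184 of 199 in replicate 2. Split in both replicates were 97 domains, in replicate 1 only 34 and in replicate 2 only 102, while 502 were a single region in each. The domains split in both were 74.0% of those split in replicate 1 and 48.7% of those split in replicate 2. Splitting was more frequent in replicate 2 on every arm, for example 25.1% against 14.9% in replicate 1 on 2R, and 33.1% against 18.1% in replicate 1 on 3L. In replicate 2 the share on 3L was the highest, and the other 3 arms lay between 25.1% and 26.0%.

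The domain met by the most regions, summed over both replicates, was also the widest, 2R 6365772 to 6418680. Replicate 1 held it as a single region of 52817 bp with a score of 1.46. Replicate 2 held it as 6 regions between 4461 and 18713 bp wide, with scores from 1.07 to 1.51. The 5 gaps between them measured 1747, 1035, 83, 119 and 260 bp, and replicate 1 had no gap at any of these places. Replicate 2 still covered 93.7% of the domain.

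By the same sum the next were 3L 13029680 to 13043306 and 3R 11655166 to 11683570, each met by 3 regions in both replicates. The most regions in replicate 1 alone were the 4 at 3R 27397442 to 27429232, a domain that was whole in replicate 2 and was picked after its values were seen. In the 3L domain the replicates had a gap at almost the same place, 13034355 to 13034524 in replicate 1 and 13034397 to 13034557 in replicate 2. To the left of that gap lay a piece scoring 2.07 in replicate 1 and 2.00 in replicate 2, and to the right were pieces scoring between 0.454 and 0.766. Its score of 1.18 in the combined list therefore stood for a strong part and a weak part. In the 3R domain a gap of 1467 bp in replicate 1 set off a left piece scoring 0.895 from a main region scoring 2.44. Replicate 2 had a gap of 1339 bp at the same place, after a left piece scoring 0.832. It was followed there by a piece of 1779 bp scoring 0.388, a further gap of 815 bp, and then the main region, scoring 2.29. Here too a domain joined stretches of unequal enrichment.

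**Figure D2:**
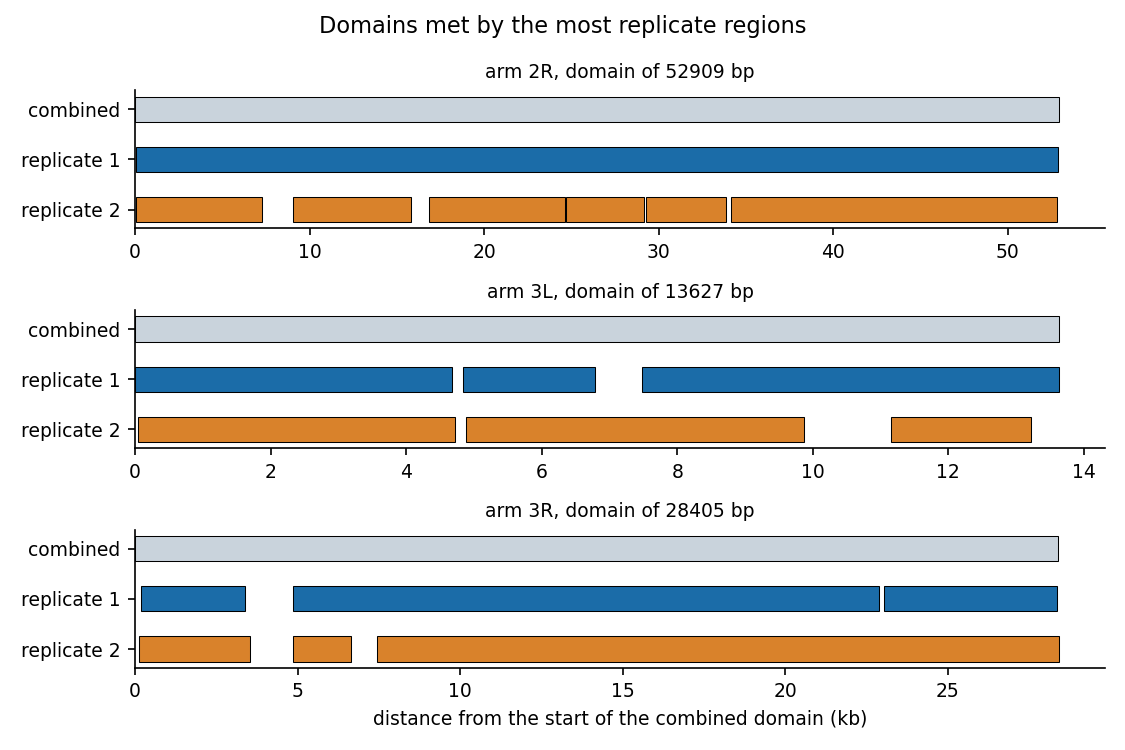
The 3 domains met by the most regions, summed over both replicates, drawn to scale as distance from the start of the combined domain in kb (x axis), with the combined region above and the regions of replicate 1 and replicate 2 below it. Replicate 2 breaks the 52909 bp domain on 2R into 6 regions while replicate 1 has none of these breaks, and the other 2 domains have 3 regions in each replicate.

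The breaks were short. Replicate 1 had 141 gaps inside domains with a median of 122 bp, and replicate 2 had 217 with a median of 155 bp. Gaps under 500 bp made up 85.1% of them in replicate 1 and 82.9% in replicate 2, and only 6 and 13 gaps reached 1 kb. A gap of the other replicate overlapped 68 of them, which is 48.2% of the replicate 1 gaps and 31.3% of the replicate 2 gaps. These shared gaps were wider in replicate 2 in 42 of 68 cases. The pieces flanking a gap differed in score by a median of 0.624 in replicate 1 and 0.591 in replicate 2. The higher flank had a median of 1.76 in replicate 1 and 1.77 in replicate 2, and the lower flank 1.09 and 1.12. The 3L and 3R examples were of this kind. The flanks were ranked within each gap, so a higher and a lower flank were fixed in advance. No other pairs of neighbouring regions were compared, so whether flanks of gaps differ more than those was not tested.

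Short gaps also lay beside the domains and were not closed in the combined list. In the combined list 294 gaps under 1 kb separated a domain from its neighbour, with a median of 348 bp, and 76 of them were shorter than the median gap inside domains in replicate 2. A single region crossed 1 of the 294 in replicate 1 and 2 of them in replicate 2. The short gaps kept in the combined list were thus rarely crossed by a replicate region, whereas 68 overlapping pairs of gaps inside domains were present in both replicates and absent from the combined list. Gaps inside domains were shorter, with medians of 122 bp in replicate 1 and 155 bp in replicate 2. The comparison was not matched for gap size.

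The share of split domains was higher at 20 to 30 kb than at 10 to 12 kb, and split domains scored lower. Splitting affected 14.1% of domains of 10 to 12 kb in replicate 1 and 22.7% in replicate 2. At 20 to 30 kb the shares were 22.8% in replicate 1 and 40.9% in replicate 2. The share did not rise at every step in replicate 2, with 21.1% at 12 to 15 kb and 40.6% at 30 kb or more. By length, split domains were not denser in the wider class. In replicate 1 there were 28 in 2.17 Mb at 10 to 12 kb and 29 in 3.06 Mb at 20 to 30 kb. In replicate 2 there were 45 and 52 in the same bases. Of the 32 domains of 30 kb or more, 8 were split in replicate 1 and 13 in replicate 2, with Wilson 95% intervals of 13.3 to 42.1% and 25.5 to 57.7%. A wider domain has more room for a break, so a rise of this share with width was built into the measure. The intervals cover counting error only and give no test between classes. Domains split in both replicates measured 15203 bp at the median and had a median combined score of 1.62. Those split in 1 replicate had 15847 bp and 1.61, and those single in both had 13650 bp and 1.81. The split domains were thus wider yet scored lower, although over all domains wider ones scored higher.

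**Figure D3:**
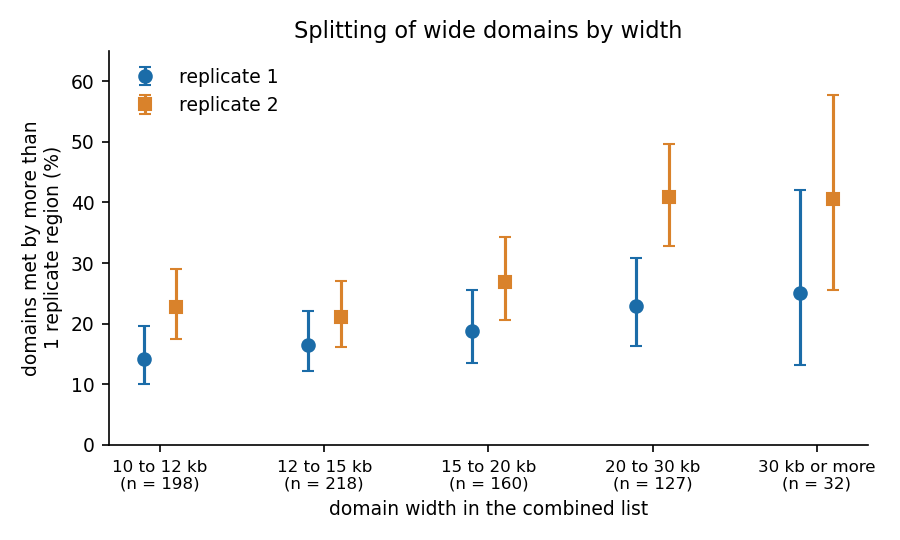
Percent of domains met by more than 1 region (y axis) in replicate 1 (circles) and replicate 2 (squares) by width class in the combined list (x axis), with Wilson 95% intervals that cover counting error only. In replicate 2 the shares are 22.7% at 10 to 12 kb and 40.9% at 20 to 30 kb, against 14.1% and 22.8% in replicate 1, and replicate 2 is the higher in every class.

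Some domains were wide in the combined list and not in the replicates. In 604 domains both replicates had a region of 10 kb or more, in 55 only replicate 1 and in 16 only replicate 2. The remaining 60 had none in either replicate. Their median width was 11253 bp, the widest reached 19483 bp, and 49 of them were split in at least 1 replicate. In the other direction, 667 of the 668 autosomal replicate 1 regions of 10 kb or more met a domain, as did all 631 of replicate 2.

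Where each replicate held a domain as 1 region that met no other region of the combined list, its ends could be compared. This was so for 501 domains, or 68.2%. Their 1002 boundaries differed between replicates by a median of 69 bp, and 62.8% lay within 100 bp of each other. Of the rest, 22 boundaries (2.20%) differed by more than 1 kb and a single boundary was identical. In 1891 narrower regions the median was 82 bp, with 57.8% within 100 bp and 2.25% over 1 kb. As boundary distances were alike in bases, they were a smaller part of a wide domain. The width of a domain differed between replicates by a median of 0.968% of its width, against 3.49% in narrower regions and 0.971% in wide X regions.

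The shifts had a direction. Replicate 1 reached further out at 674 of the 1002 domain boundaries, or 67.3%, and the domain was wider in replicate 1 in 360 of 501 cases. The median width was 13465 bp in replicate 1 and 13316 bp in replicate 2. Both replicates mostly ended inside the combined domain, by a median of 35 bp in replicate 1 and 76 bp in replicate 2. The same direction held in 66.0% of boundaries in narrower regions and 60.5% in wide X regions, so the domains share it with the rest of the list. Sequencing depth is unknown, and its part in this was not tested.

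The largest shifts were at one end of a domain only. At 2L 19166216 to 19176520 the right end lay at 19176358 in replicate 1 and 2227 bp further in at 19174131 in replicate 2, while the left ends were 65 bp apart. At 2R 314726 to 329636 the right ends were 1927 bp apart and the left ends 64 bp. At 3L 1236912 to 1252410 the left ends were 1704 bp apart and the right ends 39 bp. Replicate 1 was the longer in each of these 3 domains. Their scores were 2.04 in replicate 1 and 2.10 in replicate 2 for the first, 1.42 and 1.41 for the second, and 2.00 and 2.15 for the third.

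**Figure D4:**
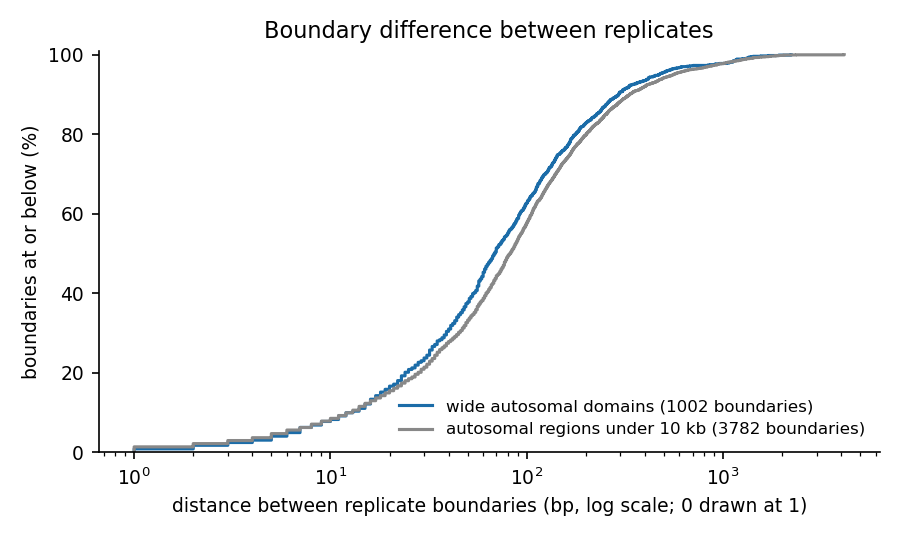
Cumulative percent of boundaries (y axis) by the distance between replicate 1 and replicate 2 (x axis, log scale) in wide autosomal domains and in autosomal regions under 10 kb. The curve of the domains lies slightly to the left, with medians of 69 bp in domains and 82 bp in narrower regions.

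Most domains scored above the middle of the list. In the combined list their scores ran from 0.767 to 3.07 with a median of 1.74 and quartiles of 1.499 and 1.995, and 705 of the 735 (95.9%) lay above the median of all combined regions, 1.14. Of the narrower autosomal regions 38.5% lay above it. Scores rise with width in these lists, so this difference follows in part from the rule. The 501 one-to-one domains had a median score of 1.84 in replicate 1 and 1.82 in replicate 2. The 1891 narrower regions had 1.16 in replicate 1 and 1.14 in replicate 2.

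The tie between width and score was weak among the domains. Across domains the Spearman correlation was 0.258 for the combined values, 0.261 for replicate 1 and 0.257 for replicate 2. Across narrower autosomal regions it was 0.797, 0.747 and 0.759 for the same lists, over a wider relative range of widths. The replicate values cover one-to-one regions only, 501 domains and 1891 narrower regions. Median scores climbed from 1.67 in domains of 10 to 12 kb to 1.91 in those of 30 kb or more. The domain with the highest score, 2L 182918 to 201442, was of moderate width, 18525 bp, with a combined score of 3.07 and replicate scores of 3.05 and 3.10. The highest on the other arms were 2R 3680482 to 3693408 at 2.75, 3R 10089882 to 10103312 at 2.67 and 3L 4805544 to 4825124 at 2.63. These were between 12927 and 19581 bp wide and none was split.

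The 2 widest domains of each arm were less uniform. On 2L, 11090958 to 11139856, of 48899 bp, was a single region in each replicate, scoring 2.09 in replicate 1 and 1.98 in replicate 2. The second on that arm, 12688510 to 12731954, was split in both replicates. On 2R the second widest, 9737162 to 9783876, was whole in replicate 1 and a pair of regions in replicate 2. On 3L, 15947794 to 15989822 was 2 regions in replicate 1 and 3 in replicate 2, and 16053908 to 16088364 was whole in both. On 3R, 27603414 to 27638586 was whole in replicate 1 and 3 regions in replicate 2, and 24521464 to 24556076 was split in both. Of these domains, counting the 52909 bp one, replicate 2 held 2 as a single region.

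Scores of single domains repeated closely. The 501 one-to-one domains correlated between replicates at 0.980 (Pearson) and 0.977 (Spearman), across domains that share libraries. The values were 0.974 and 0.972 in narrower regions and 0.974 and 0.967 in wide X regions. The 50 highest domains in each replicate had 45 in common. The difference, replicate 1 minus replicate 2, had a median of 0.0377 and an SD of 0.0694 over domains, and it was above 0 in 73.3% of them. In narrower regions it had a median of 0.0195 and an SD of 0.116, and 57.3% were above 0. Wide X regions were like the domains, with a median of 0.0397, an SD of 0.0827 and 71.0% above 0. The largest differences in domains were at 3L 9351638 to 9364592, with 2.17 in replicate 1 and 1.86 in replicate 2, and at 2R 546298 to 557596, with 2.15 and 1.89. The third was 3L 6720308 to 6735880, with 1.87 and 1.66. Replicate 1 was the higher in all 3.

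**Figure D5:**
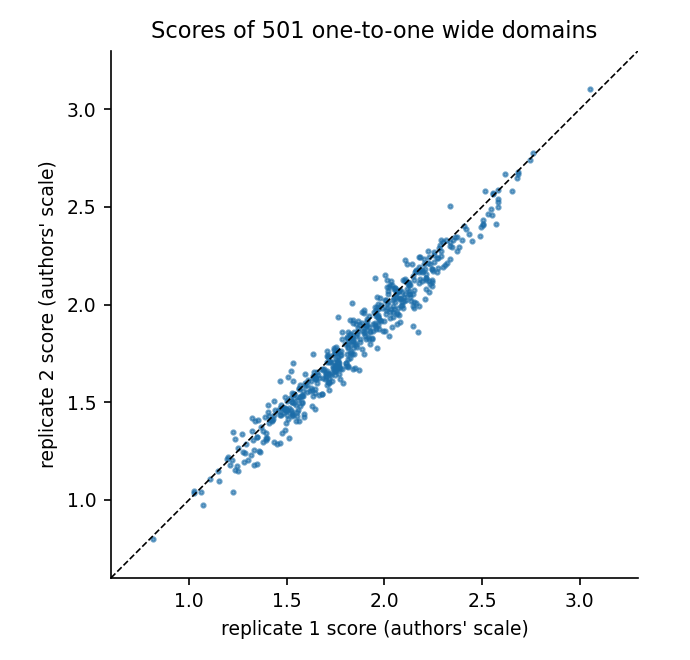
Score in replicate 1 (x axis) and replicate 2 (y axis) for the 501 one-to-one domains, on the authors' scale, with the line of equal scores. Points lie along the line, and 73.3% of them fall on the side of a higher replicate 1 score.

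A domain seldom stood alone. The nearest region of any width lay a median of 1593 bp away, and 296 domains (40.3%) had one within 1 kb. On both sides within 1 kb were 38 domains, and 56 had more than 20 kb free on both sides. Narrower autosomal regions had a median of 1305 bp to the nearest region, with 44.5% within 1 kb. More than 20 kb was free on both sides of 7.62% of the domains and of 8.60% of the narrower regions. Wide X regions had a median of 1190 bp. Spacing around the domains was thus near that around the rest of the list, and no test of the differences was made.

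The neighbours of a domain were only slightly more often wide themselves. Of the 1470 neighbours of domains, 402 (27.3%) were wide, against 21.7% of the neighbours of narrower regions. Within 5 kb the shares were 23.7% and 21.4%. In the replicate lists they were 23.4% and 20.9% in replicate 1 and 22.8% and 19.1% in replicate 2. The rule took 23.0% of autosomal regions in the combined list. Narrow neighbours of domains had a median width of 3912 bp, and narrow neighbours of narrower regions 3801 bp.

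Consecutive wide domains formed short runs. In the combined list 383 domains stood between narrower regions, and the other 352 (47.9%) lay in 110 runs of 2, 34 of 3, 5 of 4 and 2 of 5. As 23.0% of the autosomal regions were wide, many runs arise without any grouping. No random order was drawn, so grouping beyond that share was not tested. The runs of 5 were 3L 21665800 to 21945206, where 76345 bp of domains lay in 279407 bp, and 3R 20639468 to 20775634, where 82631 bp lay in 136167 bp. The first run of 4 by arm and position, 2R 7909782 to 8051006, held 44258 bp in 141225 bp. Runs thus included both dense groups and far-spaced ones, as consecutive means only that no narrower region lay between.

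Domains lay a median of 51.6 kb from the next domain along the arm, with a mean of 113 kb. Of the 731 distances, 40 were under 1 kb, 356 (48.7%) under 50 kb and 22 over 500 kb. The median was 45.1 kb on 2R, 51.1 kb on 3R, 55.4 kb on 2L and 64.0 kb on 3L. The longest stretch without a domain ran from the last domain of 3L to the centromere end of the assembled arm, 23331207 to 24543557, or 1212 kb, and held 33 narrower regions up to 9957 bp wide. At the other ends of the 4 arms the stretch was 256 kb or less. The longest stretches between 2 domains of each arm were 2L 15265841 to 16257475, of 992 kb, 3L 17848681 to 18654821, of 806 kb, 2R 15384841 to 16139349, of 755 kb, and 3R 23785577 to 24430007, of 644 kb. None of these 4 was free of the mark. They held 14, 9, 11 and 13 narrower regions, of which the widest measured 9327, 7331, 6015 and 6417 bp. The most isolated domains were 3R 26396100 to 26406890, 518 kb from the nearest other, 2L 22153206 to 22165590, at 505 kb, and 2L 14318968 to 14332590, at 483 kb. Each was a single region in both replicates.

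Windows of 200 kb were filled to unequal degrees. No random placement was drawn, so whether these values or the distances above differ from random spacing was not tested. Of 481 windows, 126 (26.2%) held no domain bases, 32.2% on 2L and 32.0% on 3L against 19.0% on 2R and 21.6% on 3R. The 48 fullest windows held 27.8% of the domain bases, a share that is raised by ranking the windows on those bases. The fullest was 2R 19800001 to 20000000, with 8 domains over 57.5% of its length. Regions of 10 kb or more covered 50.3% of it in replicate 1 and 47.0% in replicate 2. The next was 3R 11000001 to 11200000, with 4 domains over 56.1%, and 42.4% in replicate 1 and 50.7% in replicate 2. The third was 3L 1600001 to 1800000, with 5 domains over 46.1%, and 45.7% and 36.8% in the replicates.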

How the data were processed

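Per the submitters' processing notes, reads were aligned with Bowtie 0.12.7. The deposited region lists give start and end on FlyBase release 5, per the file headers, and a score that the authors assigned to each region. Neither the score's scale nor the caller and its threshold, nor how replicates were combined, is stated in the labels or headers. Depth is unknown, and Wilson intervals cover counting error only, as if regions were independent of their neighbours. The combined list has no SD or n. Whether the replicates were separate embryo collections is not stated, so their spread may be technical. The members and measures were chosen with earlier results of these data known.

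From the lists, regions of 10000 bp or more on 2L, 2R, 3L and 3R were selected. A replicate region met a domain at an overlap of 1 base. A one-to-one domain met a single region in each replicate that met no other combined region. Gaps are the bases between neighbouring regions. Parts of an arm use the midpoint of a region. With 2 replicates of a single condition no p-value was computed. Named regions followed a rule: on each arm the 2 widest domains and the highest score, and overall the 3 extremes of each measure described. Part 4 of 2L and the stretches without a domain were picked after their values were seen. The measurements were tested on simulated lists with known breaks and shifts. Alternatives changed the width limit, joining, overlap, score limit, list and replicate. Gene annotation of another release (6) was not used. Software was Python 3.11.15 with scipy 1.17.1, pandas 2.3.3, numpy 2.4.6 and matplotlib 3.10.9.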

Additional observations from a re-analysis of the deposited data

How the results depend on the processing

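The number of domains stayed within 1.5 times of 735 at limits of 8 and 12 kb, after joining regions less than 1 kb apart and in each replicate list. It was 319 at 15 kb and 159 at 20 kb, by construction. Joining raised the domain bases to 15.8 Mb from 12.02 Mb. The rate on 2R over that on 2L was 1.41, 1.37 by percent of length, and 1.41 and 1.45 in the replicate lists. All domains had 50 percent of their bases covered in both replicates, and 94.3% had 90 percent. Leaving out a replicate left the other's own value, 97.5% to 98.6% of bases covered and 17.8% to 27.1% of domains split. Joining pieces less than 1 kb apart left 1.22% split, against a mean of 22.4%, so the count of split domains rests on short gaps. The boundary difference of 69 bp became 70 bp with outermost boundaries. Against the combined list it was 40 bp for replicate 1 and 77.5 bp for replicate 2. The nearest gap of 1593 bp was 12127 bp as the mean of both sides, and 1507.5 and 1500 bp in the replicate lists. The distance to the next domain, 51.6 kb, was 166 kb at 15 kb, 385 kb at 20 kb and 46.7 kb after joining. The share of wide neighbours, 27.3%, was 23.7% within 5 kb, 23.4% in replicate 1 and 22.8% in replicate 2. The cause of these moves beyond the construction of each alternative was not tested. No paired analysis was possible because only the ChIP samples have region lists here. Depth is unknown, so its limit on narrow breaks cannot be given.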
